A study of Mus musculus with 17 samples.

Results

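The 9 genes described here, Mbp, Mog, Mag, Mobp, Cnp, Cldn11, Mal, Opalin and Ermn, encode proteins of the myelin sheath or of the cells that make it. They were chosen by name, and all 9 were found among the 26131 genes of the count table. Single-nucleus RNA sequencing gave 284074 nuclei of posterior brain from 17 female mice aged 2.3 months. All animals, saline included, carried a knock-in of the human transferrin receptor (TfR) on both alleles. Each animal had 4 weekly intravenous doses over 24 days. The groups were saline (n = 4), a free antisense oligonucleotide against the nuclear RNA Malat1 (Malat1 ASO, n = 4), and 2 conjugates of such an oligonucleotide, with an anti-TfR antibody (anti-TfR:Malat1, n = 6) and with an oligonucleotide transport vehicle that binds TfR (OTV:Malat1, n = 3). Each dose held 50 mg per kg of a conjugate or 2 mg per kg of free oligonucleotide, given as the equivalent amount, and harvest followed the final dose by 72 hours. The design set the carriers side by side for loss of Malat1. None of the members is a target of the oligonucleotide, so the comparisons below show how the myelin genes stood in animals whose oligodendrocytes had or had not lost Malat1.

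Myelin is the stack of membrane that oligodendrocytes wrap around axons in the brain and spinal cord. Its proteins fall into groups by place. Myelin basic protein (Mbp) and the related small basic protein Mobp bind the cytoplasmic faces of the membrane and hold them together, and Cnp, a cyclic nucleotide phosphodiesterase, lines the cytoplasmic channels that stay open. Mog lies on the outermost surface, Mag on the innermost membrane facing the axon, and the claudin Cldn11 forms tight junctions between the turns. Mal is a raft protein of membrane sorting, Opalin a glycoprotein of oligodendrocyte processes, and Ermn a cytoskeletal protein of mature cells. Mbp RNA is known to be carried out of the cell body and translated near the sheath, so RNA in nuclei does not measure the amount of myelin protein.

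Promoter windows from RefSeq (GRCm38.p6) were found for 8 members, all but Mbp. In the 250 bases before each start, 5 short motifs were searched on both strands. A member was counted if any of its windows matched, and Mag had several, not all with a match. The shares of all windows are per window, so they are not fully alike to the counts of members. The motif CTGGNAC, known as a binding word of the oligodendrocyte regulator Myrf, was present at Cnp, Mag and Mog, 3 of the 8 members, and in 16.1% of all 32851 windows. ACAAAG, a word of the Sox family of regulators, was present at Cnp, Mag, Mobp and Opalin (4 of 8; 16.5% of all windows). ACAATG, a related word, was present at Ermn only among the members (1 of 8; 10.7% of all windows), and CAGCTG (13.001% of all windows) and TATAAA (12.4%) were at none of the 8. The stretch before Mobp is shown because it held 6 matches to ACAAAG, a number reached by 0.00304% of all windows, which is Mobp's window alone. Mag, whose stretch is not shown, held 2 matches to CTGGNAC in some of its windows, and 1.58% of all windows held 2 or more. The stretches before Cnp and Mog are shown for their matches to CTGGNAC, 2 and 1. Each runs 5′ to 3′ on the gene's own strand from 250 to 51 bases before the RefSeq start, with the matches to ACAAAG (Mobp) or CTGGNAC (Cnp and Mog) in capitals, in either direction, none of which overlap. The positions are chr9:120149492-120149691 on the + strand for Mobp, chr11:100574689-100574888 on the + strand for Cnp and chr17:37023449-37023648 on the - strand for Mog.
Mobp: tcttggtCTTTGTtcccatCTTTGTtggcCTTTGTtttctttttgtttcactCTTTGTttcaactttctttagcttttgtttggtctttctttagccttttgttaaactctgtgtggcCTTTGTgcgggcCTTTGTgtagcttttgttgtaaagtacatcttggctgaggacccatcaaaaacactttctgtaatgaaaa
Cnp: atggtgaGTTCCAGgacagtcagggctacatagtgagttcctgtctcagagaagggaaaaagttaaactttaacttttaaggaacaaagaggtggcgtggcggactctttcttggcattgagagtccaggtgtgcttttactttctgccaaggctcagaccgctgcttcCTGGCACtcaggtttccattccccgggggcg
Mog: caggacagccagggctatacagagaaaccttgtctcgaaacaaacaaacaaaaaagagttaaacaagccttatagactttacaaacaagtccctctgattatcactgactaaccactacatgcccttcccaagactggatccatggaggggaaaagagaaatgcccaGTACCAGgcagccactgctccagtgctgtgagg
A match is a description of letters, and no binding was measured here.

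The deposited metadata gave each nucleus a cell type label, a cluster number, a batch number and a doublet call (2 cells read as 1). Oligodendrocytes were taken as the nuclei with that label in clusters 0, 2 and 15, where it held over 50% of the nuclei. They numbered 73156, or 25.8% of all nuclei, with 3610 to 5623 in each animal and 3875042 to 8896765 UMIs (unique molecular identifiers, counted RNA molecules). All 10 fixed oligodendrocyte markers, of which 7 are also members, were detected there, at 19108 CPM in sum (CPM, a gene's UMIs per 1000000 UMIs of the class). The summed level of markers of other cells was 909 CPM for neurons, 228 for astrocytes, 103 for oligodendrocyte precursors, 54.8 for microglia, 3.36 for endothelial cells and 1.23 for peripheral myelin. Libraries shared 50 to 110 cell barcodes by pairs. OTV:Malat1 replicate 2 stood apart from the other animals in its myelin RNA, as described below. Some of the results that rest on it are given with and without it. In neurons these are the changes of Cnp, Mal and Ermn against saline and of Cnp against the other conjugate. Levels and percents outside oligodendrocytes include this animal.

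The level of each member varied between animals within every group, and the groups overlapped for all 9. Mbp stood at 5340.5, 3997, 3975 and 4186 CPM in saline replicates 1 to 4, and at 5292, 4443, 3632 and 3912 CPM in Malat1 ASO. In anti-TfR:Malat1 its lowest, median and highest values were 3886, 4232 and 4903 CPM, and in OTV:Malat1 its values were 4584, 4199 and 4899 CPM. The 3 animals of batch 1 (saline 1, Malat1 ASO 1 and anti-TfR:Malat1 1) ranged from 4903 to 5340.5 CPM and lay above the 14 others, whose highest was OTV:Malat1 replicate 3. Of the 9 members, only Mbp had a batch that lay wholly above or below the rest. Batch 1 held no OTV:Malat1 animal.

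Mobp stood at 1268, 1015, 960.4 and 1541 CPM in saline and at 1153, 1355, 810.2 and 1288 CPM in Malat1 ASO. Its lowest, median and highest values were 872, 1136 and 1288 CPM in anti-TfR:Malat1, and it stood at 1219.8, 964 and 1148 CPM in OTV:Malat1. The saline animals alone spanned the values of all conjugate animals but 1, anti-TfR:Malat1 replicate 6. Cnp stood at 171, 165, 162 and 122 CPM in saline and at 182, 140.5, 152 and 144 CPM in Malat1 ASO. Its lowest, median and highest values were 142, 159.7 and 199 CPM in anti-TfR:Malat1. The OTV:Malat1 animals stood at 157, 258 and 157 CPM. The second of these, OTV:Malat1 replicate 2, was the highest of the 17 animals. Mal had the widest spread between animals relative to its mean, from 273 to 739.9 CPM. Its group means were 451 ± 108 CPM (SD, n = 4) in saline, 468 ± 182 (SD, n = 4) under the free oligonucleotide, 465 ± 113 (SD, n = 3) in OTV:Malat1 and 438 ± 108 (SD, n = 6) in anti-TfR:Malat1.

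Across all 17 animals Mog was at 1374 ± 145 CPM (SD), Mag at 879 ± 73.0, Cldn11 at 416 ± 53.6, Opalin at 408 ± 45.9 and Ermn at 279 ± 42.5. Of these, Mog, Mag and Opalin were highest in OTV:Malat1 replicate 2, at 1638, 1066 and 484 CPM. With Malat1 left out of the total, a choice made after seeing the data, that animal was still the highest for Mag (1080.1 CPM, beside at most 1022) and Cnp (262, beside at most 213). Mog was then highest in saline replicate 3 (1781, beside 1659) and Opalin in anti-TfR:Malat1 replicate 5 (513, beside 490.2).

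**Figure D1:**
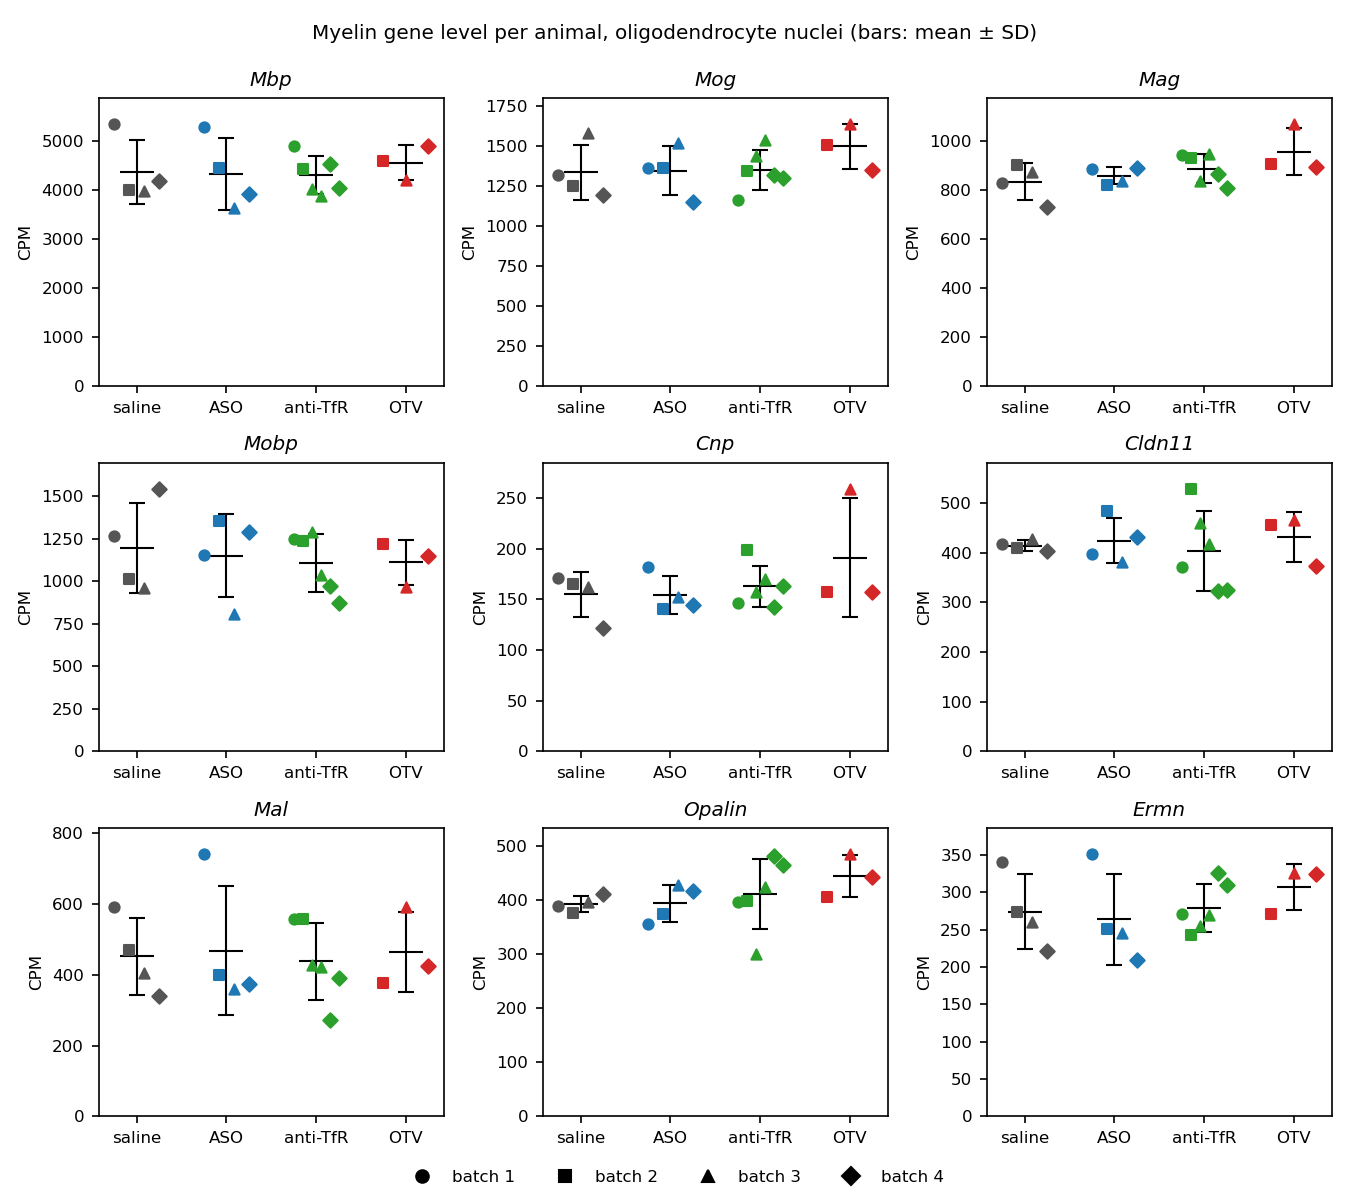
CPM of each member in the oligodendrocyte nuclei of each animal, by treatment, with the marker shape giving the deposited batch and the black bars the mean and SD of the group (n = 4, 4, 6 and 3). The groups overlap in every panel, and the batch 1 animals (circles) are the 3 highest for Mbp.

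No member passed the test in any of the 4 comparisons in oligodendrocytes. UMIs were summed per animal and fitted over 13993 genes with edgeR's quasi-likelihood test, scaled by TMM (a factor that centres most genes on no change), and p-values were adjusted by Benjamini-Hochberg with a threshold of 0.05. In OTV:Malat1 against saline 0 of 9 members passed, where 0.0214% of all genes were called: Malat1, Slc35f2 and Saa3, all lower. Against anti-TfR:Malat1 0 of 9 passed in OTV:Malat1, where 0.00715% were called, Malat1 alone. Against saline, 0 of 9 passed in anti-TfR:Malat1 and 0 of 9 in Malat1 ASO, where 0% of all genes were called in both. At an unadjusted p under 0.05 edgeR gave 0 members in all 4 comparisons, and DESeq2 called 0. Of the genes other than Malat1, 0.8% lay under that p for the free oligonucleotide against saline. The share was 2.74% for OTV:Malat1 and 1.77% for anti-TfR:Malat1 against saline, and 2.63% between the conjugates. The groups' log2 CPM values after TMM scaling overlapped for all 9 members in each comparison, while 3.92% of all genes did not overlap in OTV:Malat1 against saline and 1.28% between the conjugates. The share was 0.336% in anti-TfR:Malat1 against saline and 0.922% in Malat1 ASO against saline.

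In the same nuclei Malat1, the target, took 7.96% to 12.1% of UMIs in saline animals and 1.28% to 1.63% in OTV:Malat1. The range was 7.13% to 11.8% under the free oligonucleotide and 5.87% to 8.71% in anti-TfR:Malat1. Its log2 change against saline was -3.07 (SE 0.20; edgeR adjusted p 4.493e-08) in OTV:Malat1 and -0.64 (SE 0.15; unadjusted p 0.0003614, adjusted p 0.9999) in anti-TfR:Malat1. Against these, the members' log2 changes were small. In OTV:Malat1 against saline they ran from -0.30 (Mobp) to 0.10 (Cnp), with a median of -0.03 beside 0.01 over all genes. In anti-TfR:Malat1 they ran from -0.18 (Mobp) to 0.03 (Mag), with a median of -0.05 beside -0.01, and in Malat1 ASO from -0.07 (Mobp) to 0.04 (Mal), with a median of -0.01 beside 0.00. Between the conjugates (OTV:Malat1 over anti-TfR:Malat1) they ran from -0.12 (Mobp) to 0.10 (Cnp), with a median of -0.02 beside 0.02. The first 3 comparisons use the same 4 saline animals, and both OTV:Malat1 comparisons share its 3 animals.

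The 95% intervals bounded the changes as follows. For Mbp in OTV:Malat1 against saline the log2 change was -0.13 (SE 0.14), with an interval of -0.43 to 0.16, or 0.744 to 1.12 times the saline level. For Mobp, the member with the smallest p, it was -0.30 (SE 0.19), with an interval of -0.69 to 0.10, or 0.62 to 1.07 times (unadjusted p 0.1311, edgeR adjusted p 0.9673). Mag was the most closely bounded, at 0.888 to 1.13 times, and Mal the least, at 0.611 to 1.31 times. For Mog the interval was 0.84 to 1.15 times, for Cnp 0.859 to 1.34, for Cldn11 0.747 to 1.12, for Opalin 0.832 to 1.17 and for Ermn 0.773 to 1.23. Over all members and all 4 comparisons the interval bounds lay between log2 changes of -0.71 and 0.55. A p above the threshold does not show that the levels were equal.

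**Figure D2:**
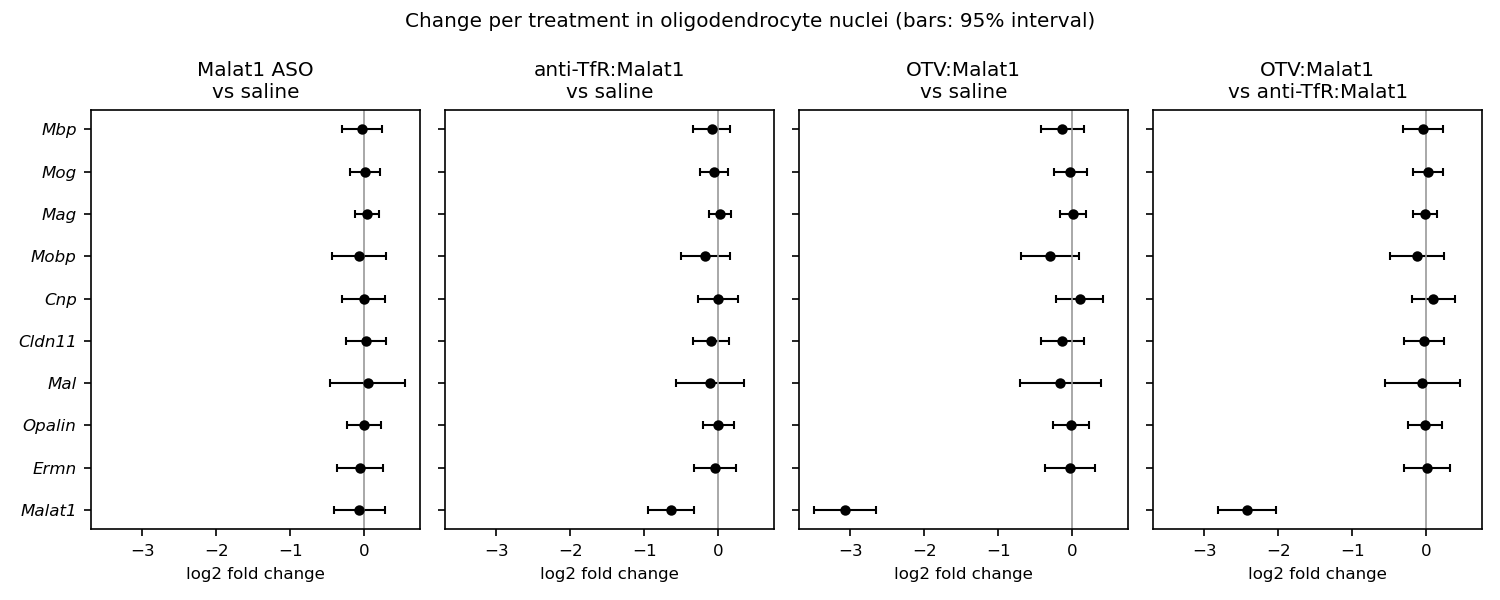
Log2 fold change of the 9 members and of Malat1 in oligodendrocyte nuclei for the 4 comparisons, with bars for the 95% interval of the edgeR fit (17 animals). Every member's interval includes 0, while Malat1 lies at -3.07 and -2.42 in the comparisons of OTV:Malat1.

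The scale matters for the OTV:Malat1 group. CPM divides by a total that includes Malat1. With total UMIs alone as the scale, the median of all genes in OTV:Malat1 against saline moved to 0.20. The share of genes on the higher side was then 89.6%, in place of 51.7% under TMM. Against anti-TfR:Malat1 the median moved to 0.15, with 82.5% in place of 53.9%. In anti-TfR:Malat1 against saline it moved to 0.06, with 69.8% in place of 48.4%. On that scale 8 of the 9 members had a positive value in OTV:Malat1 against saline, Mobp (-0.11) being the exception, where TMM gave 2 positive values (Cnp and Mag). The CPM means show this: Mbp was at 4560.4 ± 351 CPM (SD, n = 3) in OTV:Malat1 and 4375 ± 651 (SD, n = 4) in saline, above saline in CPM and below it under TMM. With total UMIs without Malat1 as the scale, Cnp, Mag, Mog, Opalin and Ermn were positive in OTV:Malat1 against saline. Mbp (-0.08), Mobp (-0.24), Cldn11 and Mal were negative on it. The part of Malat1 in the shift between scales was not tested. No member passed the test on any of these scales. The sum of the 10 oligodendrocyte markers, on the CPM scale, was 19577 to 20350.5 in OTV:Malat1 animals and 18107 to 19879 in saline. With Malat1 left out of the total it was 19835 to 20688 in OTV:Malat1 and 20340 to 22609.5 in saline, so that saline reached higher. Markers of committed precursors were at 1365 to 1427 CPM in OTV:Malat1 and 1192 to 1335 in saline, and overlapped with Malat1 left out of the total, a choice made after seeing the data, at 1383 to 1446 and 1339.5 to 1519. Summed neuronal markers in the same nuclei were 843 to 1189 CPM in OTV:Malat1 and 593 to 965 in saline, with up to 1437 under the free oligonucleotide, and summed astrocyte markers 241 to 276 and 195 to 244 CPM. With Malat1 left out of the total, the neuronal sums were 857 to 1205 in OTV:Malat1 and 674 to 1049 in saline. The astrocyte sums were then 245 to 280 and 222 to 266. The part of the neuronal and astrocyte markers in the members' values was not tested.

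Within batches no member went the same way in every batch in any comparison after TMM scaling. In CPM without that scaling, Mbp, Mog, Mag and Opalin were higher in OTV:Malat1 than in saline in each of batches 2 to 4. Mbp stood at 4584 and 3997, 4199 and 3975, and 4899 and 4186 CPM, while the members not named went both ways. The TMM-scaled log2 difference of Mbp between OTV:Malat1 and saline ranged from -0.15 to 0.08 over batches 2 to 4, and that of Mobp from -0.62 to 0.15. That of Cnp ranged from -0.19 to 0.45, the highest being that of batch 3, which held OTV:Malat1 replicate 2. Without this animal the log2 change of Cnp against saline was -0.13 (SE 0.14), in place of 0.10 (SE 0.15), that of Mobp was -0.17 and that of Mbp was -0.04, with 0 of 9 members past the threshold of the edgeR test. With the deposited batch as a block, the change against saline in OTV:Malat1 was -0.03 for Mbp, in place of -0.13, and 0.05 for Mal, in place of -0.16, again with 0 of 9 past the threshold.

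The fixed list of 35 other genes of myelin and oligodendrocytes, among them Ugt8a and Fa2h (myelin lipid synthesis) and Myrf, Sox10 and Olig2 (regulators), gave the same count. All 35 were tested, 0 rose and 0 fell in each of the 4 comparisons in oligodendrocytes, and 0 had an unadjusted p under 0.05 in edgeR, beside the same 0.8% to 2.74% of the genes other than Malat1. Their median log2 change from saline was -0.03 for the free oligonucleotide, -0.06 for anti-TfR:Malat1 and -0.05 for OTV:Malat1, and it was 0.01 between the conjugates. In clusters 0, 2 and 15 and in neurons 0 of the 35 rose or fell as well. In cluster 15, 3 had an unadjusted edgeR p under 0.05 in anti-TfR:Malat1 against saline, beside 242 other genes of 9184 tested. In neurons 4 did so between the conjugates, with OTV:Malat1 replicate 2 included, beside 450 other genes of 20810. Oligodendrocytes made up 27.4% ± 5.09 (SD, n = 4) of nuclei in saline animals. The share was 26.2% ± 4.29 (SD, n = 3) in OTV:Malat1. It was 25.1% ± 3.99 (SD, n = 6) for anti-TfR:Malat1, while the free oligonucleotide gave 25.3% ± 4.37 (SD, n = 4). By exact two-sided permutation of animals, in which the smaller tail was doubled, the p against saline was 0.857, 0.429 and 0.571 in that order, and 0.714 between the conjugates. The smallest p that the design of 3 animals against 4 allows is 0.0571.

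The deposited clusters of oligodendrocytes differed in which members they held most of, and the genes did not all go one way. Clusters 0, 2 and 15 held 37325, 29228 and 6603 of the oligodendrocytes, with medians of 1457, 945 and 2477 UMIs per nucleus and 1.39%, 0.174% and 29.7% deposited doublets. These are descriptions, since the clusters were made from the same counts. Mbp and Mobp, the proteins that hold the cytoplasmic faces together, were lowest in cluster 2, higher in cluster 0 and highest in cluster 15 in 17 of 17 animals. As a mean over animals of the level in the whole class, Mbp was at 89.5% ± 1.99 (SD, n = 17) in cluster 2, 100.4% ± 3.22 in cluster 0 and 121% ± 6.35 in cluster 15. Mobp was at 82.0% ± 4.80, 100.8% ± 5.56 and 131.6% ± 7.21 in the same order. The log2 difference between clusters 15 and 2 was 0.43 ± 0.07 (SD, n = 17) for Mbp and 0.68 ± 0.08 for Mobp. Summed neuronal markers in these nuclei ran in the reverse order, at 1176, 889 and 561 CPM pooled in clusters 2, 0 and 15. The part of neuronal RNA in the order of Mbp and Mobp was not tested.

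Mal and Opalin went the other way. Cluster 15 lay below cluster 2 in 16 of 17 animals for each, by -0.25 ± 0.15 (SD, n = 17) and -0.21 ± 0.13 on the log2 scale. Mog and Mag were higher in cluster 15 in 16 of 17 animals each, by only 0.12 ± 0.08 and 0.15 ± 0.08. Cnp, Cldn11 and Ermn showed no common order, with cluster 15 above cluster 2 in 5, 4 and 6 of 17 animals. The share of an animal's oligodendrocytes in cluster 2 ranged from 17.9% to 62.2%, so the makeup of the class by cluster differed between animals. Within the single clusters 0 of 9 members passed the edgeR test in each of the 4 comparisons. In OTV:Malat1 against saline 0.00777% of all genes were called in cluster 0, 0.0087% in cluster 2 and 0.0109% in cluster 15, in each Malat1 alone. The same shares were called against anti-TfR:Malat1, and 0% in the comparisons of anti-TfR:Malat1 and Malat1 ASO with saline. At an unadjusted p under 0.05 edgeR gave 0 members in each cluster and comparison, and DESeq2 called 0. Of the genes other than Malat1, those under that p against saline made up 1.25%, 1.54% and 2.07% in clusters 0, 2 and 15 for Malat1 ASO. The shares in the same order were 2.37%, 1.67% and 2.64% for anti-TfR:Malat1 and 2.9%, 2.18% and 4.02% for OTV:Malat1. Between the conjugates they were 3.57%, 2.08% and 5.74%.

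A further 1130 nuclei with the oligodendrocyte label lay in cluster 17, outside the class, and held the members at unequal levels. Their Mbp stood at 95.2% (74.8% to 116% over 17 animals) of the level in the oligodendrocytes of the same animal, Cnp at 76.4% ± 12.2 (SD, n = 17), Cldn11 at 66.8% ± 18.4 and Mag at 59.2% ± 11.6. Mobp was at 36.6% ± 13.1, Mog at 22.2% ± 6.01, Opalin at 16.7% ± 5.44, Mal at 16.4% ± 5.64 and Ermn at 14.5% ± 9.36. Mog, Mag, Mobp, Mal, Opalin and Ermn lay below cluster 0 in 17 of 17 animals, and Mbp in 10 of 17. The deposited doublet calls covered 44.2% of these nuclei. In the 631 others pooled Mbp was at 117% of the class level, Cldn11 at 90.2%, Cnp at 87.9%, Mag at 76.6% and Mobp at 44.9%, all above their values with doublets. Mog was at 15.8%, Opalin at 12.8%, Mal at 8.40% and Ermn at 5.48%, all below them. All 6 markers of committed precursors and all 6 of oligodendrocyte precursors were higher in these nuclei than in the class, in sum 11032 against 1321 CPM and 9491 against 103 CPM. The cluster is left unnamed here.

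Further sets of nuclei were left out of the classes, some of which went against their labels. The 430 nuclei labelled oligodendrocytes in cluster 13 had Mbp at 75.4 and Mog at 8.70 CPM pooled, or 1.71% and 0.636% of the class level, with precursor markers at 17238 CPM. The 474 in cluster 18 held all members at 58.8% to 78.3% of the class level, with 75.7% deposited doublets, oligodendrocyte markers at 12650 CPM and microglia markers at 2547 CPM. In the same cluster 352 nuclei labelled microglia held all members at 52.0% to 62.8% of the class level, Mbp at 2448 CPM among them, with 80.1% deposited doublets, oligodendrocyte markers at 10920 CPM and microglia markers at 3719 CPM. On the other side, 5818 nuclei labelled neurons lay in cluster 2, where the oligodendrocyte label led. They had a median of 814 UMIs and 4.30% deposited doublets, and held Mbp at 73.5% ± 6.24 (SD, n = 17), Mog at 64.3% ± 5.37 and Ermn at 43.3% ± 8.30 of the oligodendrocyte level. Summed neuronal markers there were 2300 CPM, beside 1176 in the oligodendrocyte-labelled nuclei of that cluster and 12925 in neurons.

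**Figure D3:**
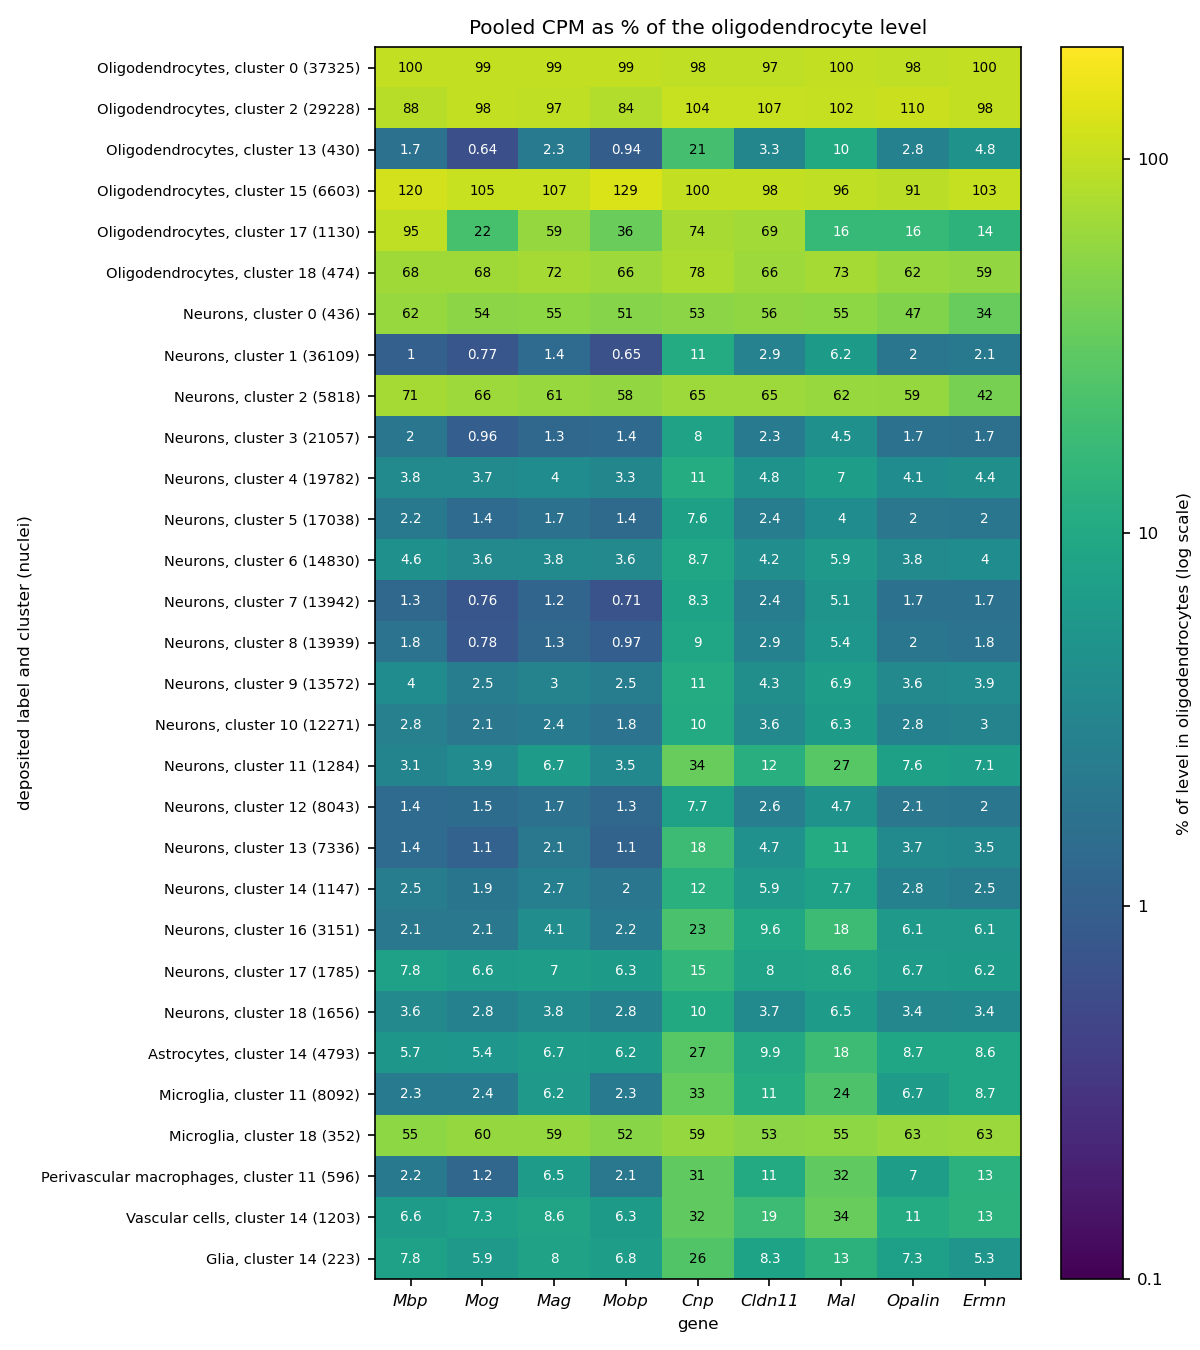
Pooled CPM of each member in each of the 30 pairs of deposited label and cluster with 200 or more nuclei, as a percent of the level in the oligodendrocyte class (colour on a log scale, values printed, number of nuclei in brackets). Cluster 17 of the oligodendrocyte label keeps Mbp while Mog, Mal, Opalin and Ermn are low, and in microglia of cluster 11 Cnp and Mal stand above the other members.

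In neurons every member was counted, at under 10% of its oligodendrocyte level in the mean. Neurons were taken as the 184511 nuclei of that label in clusters where it held over 50%, with a median of 4737 UMIs. This set includes 7336 nuclei of cluster 13, where markers of oligodendrocyte precursors summed to 16570.4 CPM and neuronal markers to 1446 CPM. Mbp stood at 116 ± 15.4 CPM (SD, n = 17) in neurons, Mog at 27.0 ± 5.78, Mag at 20.8 ± 5.46, Mobp at 21.7 ± 3.79 and Cnp at 15.8 ± 5.46. For Mbp, Mog, Mag and Mobp these levels turned on the deposited doublets. Without them Mbp was at 51.3 ± 11.1 CPM (SD, n = 17), Mog at 6.85 ± 2.13, Mag at 8.93 ± 3.64 and Mobp at 7.07 ± 1.92, while Cnp was at 14.8 ± 5.83 and Mal at 23.8 ± 10.5. Oligodendrocytes kept 4330.3 ± 496 CPM of Mbp without doublets. Thinned to 500 UMIs, 86.1% of oligodendrocytes and 4.95% of neurons held a UMI of Mbp, where 98.0% and 27.1% did so unthinned, and no nucleus had to be left out. For Mog the thinned shares were 48.6% and 1.31%, for Cnp 8.06% and 0.908%, and for Ermn 13.1% and 0.437%. Microglia of cluster 11, at a median of 989 UMIs beside 1263 in oligodendrocytes, held a UMI of Mbp in 4.95% of nuclei and of Mal in 5.45% after thinning, where 20.3% of oligodendrocytes held Mal.

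The members did not fall by the same factor outside oligodendrocytes. In neurons Mbp was at 2.65% ± 0.29 (SD, n = 17) of the same animal's oligodendrocyte level, Mog at 1.96% ± 0.29, Mag at 2.35% ± 0.43, Mobp at 1.93% ± 0.33, Opalin at 2.73% ± 0.62, Ermn at 2.86% ± 0.73 and Cldn11 at 3.36% ± 0.83. Cnp was at 9.51% ± 1.44 and Mal at 5.95% ± 1.38. Cnp and Mal lay above the other 7 members in 17 of 17 animals, and did so too in neurons without clusters 13, 17 and 18. In microglia of cluster 11 the spread was wider. Mbp, Mog and Mobp stood at 2.35% ± 0.72 (SD, n = 17), 2.39% ± 0.98 and 2.33% ± 1.25, Mag at 6.13% ± 1.47 and Cldn11 at 10.7% ± 5.14, while Mal stood at 24.1% ± 7.18 and Cnp at 32.6% ± 12.1. Again Cnp and Mal lay above the other 7 in 17 of 17 animals, and the same was true of neuron-labelled nuclei in cluster 13, whereas it held in 16 of 17 animals in astrocytes, 11 in vascular nuclei, 9 in perivascular macrophages and 7 in neuron-labelled nuclei of cluster 17. In neuron-labelled nuclei of cluster 2 it held in 2 of 17. The vascular nuclei and perivascular macrophages numbered only 1203 and 596 over all animals, so their order rests on few UMIs. Cnp, for example, had 1 UMI in the vascular nuclei of saline replicate 4.

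The ratio of Mbp to Mal UMIs put this in a single number. It was 10.1 ± 2.30 (SD, n = 17) in oligodendrocytes, 4.70 ± 1.59 in neurons, 3.27 ± 0.99 in astrocytes, 1.34 ± 0.37 in neuron-labelled nuclei of cluster 13 and 0.98 ± 0.24 in microglia. Without deposited doublets, a choice made after seeing the data, it was 2.43 ± 0.91 (SD, n = 17) in neurons and 0.88 ± 0.32 in astrocytes, while oligodendrocytes stood at 10.0 ± 2.35, cluster 13 at 1.31 ± 0.34 and microglia at 0.98 ± 0.24. In the neuron-labelled nuclei of cluster 17, of which 97.0% were deposited doublets, it was 9.02 ± 2.97, near that of oligodendrocytes. Between the neuron clusters Mbp differed as well. It was at 202 CPM in cluster 6 (62.0% deposited doublets), 178 in cluster 9 (11.95%), 167 in cluster 4 (44.9%), 63.5 in cluster 12 (30.4%) and 46.0 in cluster 1 (9.46%). Without deposited doublets the ratio of Mbp to Mal was 1.04 ± 0.72 (SD, n = 17) in vascular nuclei and 0.79 ± 0.49 in perivascular macrophages. In microglia, cluster 13, astrocytes, vascular nuclei, perivascular macrophages and neurons the mix of myelin RNA thus differed from that in oligodendrocyte nuclei. Where these molecules came from was not tested.

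**Figure D4:**
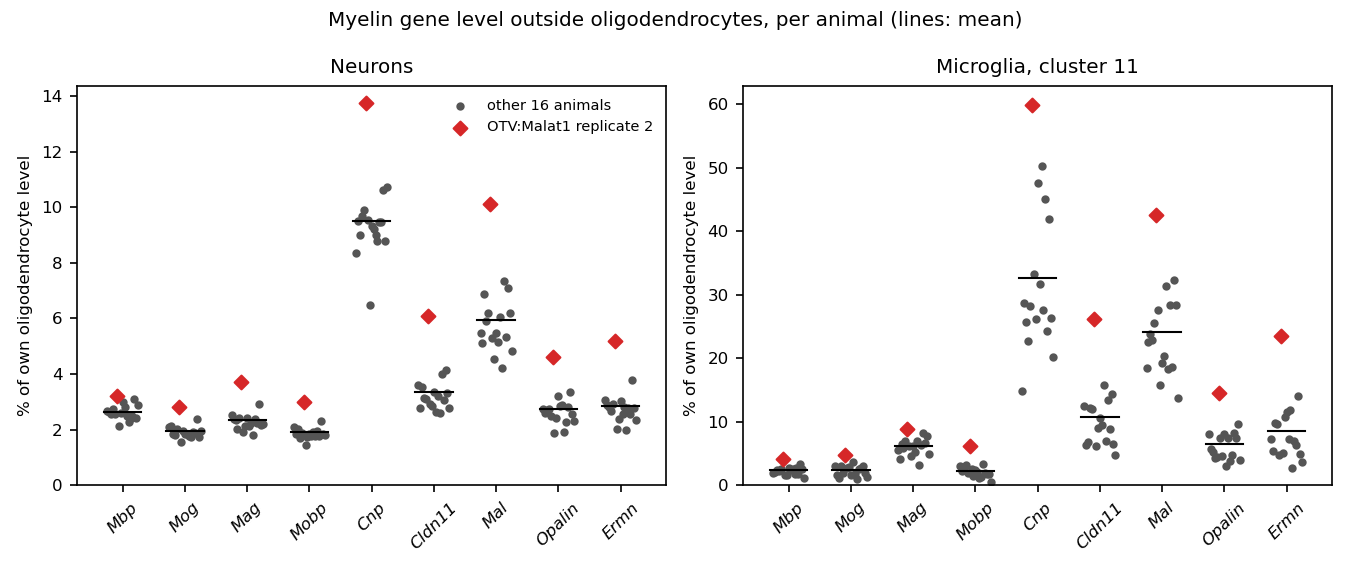
Level of each member in neurons (left) and in microglia of cluster 11 (right) as a percent of the same animal's oligodendrocyte level, one point per animal (17) with the mean as a line and OTV:Malat1 replicate 2 as a red diamond. Cnp and Mal lie above the other members, and the diamond is the highest point for all 9 in both panels.

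OTV:Malat1 replicate 2 had the highest level of these genes among the 17 animals in neurons, in microglia of cluster 11 and in neuron-labelled nuclei of cluster 13, also with Malat1 left out of the total, but not in vascular nuclei. The 9 members together were at 413 CPM in its neurons, where the other 16 animals ranged from 207 to 306 CPM. In its microglia of cluster 11 they were at 1083 CPM, beside 224 to 596, and in its neuron-labelled nuclei of cluster 13 at 524 CPM, beside 148 to 285. In its astrocytes they were at 983 CPM, beside 465 to 901, but without Malat1 in the total saline replicate 1 was above it (1031 and 1017 CPM). In its vascular nuclei they were at 1157 CPM, where anti-TfR:Malat1 replicate 4 had 1522 CPM. Taken singly, 8 of the 9 members were highest in this animal in neurons, Mbp (135 CPM) being exceeded by Malat1 ASO replicate 1 (141 CPM), and all 9 in microglia. Its oligodendrocyte share of nuclei, 30.6%, was exceeded only by those of saline 1 and Malat1 ASO 1 among the 17 animals.

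In the treatment comparison of neurons the OTV:Malat1 values turned on this animal. With it, the median log2 change of the members was 0.30 relative to saline and 0.32 relative to the other conjugate, beside 0.00 and 0.01 over all 20810 genes. The median without this animal is not given, and only Cnp, Mal and Ermn without it follow below. Of the 9 members, 0 passed the edgeR test in any of the 4 comparisons, where 0% of all genes were called. At an unadjusted p under 0.05 there was 1, Cnp in OTV:Malat1 against anti-TfR:Malat1 (log2 change 0.50, SE 0.21, unadjusted p 0.02595, edgeR adjusted p 0.995), and DESeq2 called 0. Of the genes other than Malat1, 2.16% lay under that p in this comparison, and 0.63%, 1.25% and 1.14% did so in Malat1 ASO, anti-TfR:Malat1 and OTV:Malat1 against saline. Without OTV:Malat1 replicate 2 that change was 0.03 (SE 0.17, edgeR adjusted p 1.0). Against saline the change of Cnp was 0.45 with it and -0.02 without it, that of Mal 0.33 and -0.24, and that of Ermn 0.33 and -0.14. In the other groups the members' log2 changes in neurons ran from -0.14 to 0.03.

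The level outside oligodendrocytes was set against how much oligodendrocyte RNA an animal's library held. Over the 17 animals the summed CPM of the members in neurons correlated with the oligodendrocyte share of UMIs at Pearson's r 0.553 (permutation p 0.0109) and Spearman's rho 0.534 (permutation p 0.0285), 1 relation being computed. Both measures come from the same library. Without the 2 animals farthest from the median share, r was 0.529 (permutation p 0.0295) and rho 0.404 (permutation p 0.138), so the rank relation no longer held. Without OTV:Malat1 replicate 2, a choice made after seeing the data, r was 0.575 (permutation p 0.0193) and rho 0.476 (permutation p 0.0641). Without deposited doublets r was 0.438 (permutation p 0.0726), past the threshold no longer. With each batch centred on its mean and animals permuted within batches, likewise chosen after seeing the data, r was 0.678 (permutation p 0.0522) and rho 0.446 (permutation p 0.173), both short of the threshold. No batch held 6 animals, so no r is given for a single batch.

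Across the 30 pairs of label and cluster, the 5 genes outside the members whose pattern was most like the members' mean included Trim59 (Pearson's r 0.983 of log2(CPM + 1)), Qdpr (0.978), Trf (0.977) and Ppp1r14a (0.977). Trf encodes transferrin, which oligodendrocytes are known to make. Among the members themselves Opalin and Mag were closest to that mean (0.994 each) and Mal (0.942) and Cnp (0.954) farthest from it. The pairs share libraries, and the labels were made from the same counts.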

How the data were processed

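The authors deposited whole-number UMI counts per gene and nucleus, with a metadata table, per the file headers. The submitters' processing notes list Cell Ranger 6.0.1, Seurat 4 and mm10, without roles. What the batch number and the doublet call were made from is not given in the sources used here. Nuclei had at least 500 UMIs, and 16.8% were deposited doublets, which were kept. UMIs were summed per animal and class (20 or more nuclei), and all 17 animals were fitted together in edgeR 4.0.16 (filterByExpr, TMM, glmQLFit, glmQLFTest; R 4.3.3) with Benjamini-Hochberg adjustment over all genes. Intervals of changes are 95% intervals of that fit. CPM is a gene's UMIs over all UMIs of the class, scaled to 1000000. Levels of the members were not ranked against each other, since lengths were not taken into account. The sums over members or marker lists and the ratio of Mbp to Mal join different genes without such a correction. The edgeR fit of OTV:Malat1 against saline in oligodendrocytes was checked on simulated counts, in which abundant genes were given changes larger than those of the members. Those counts had the same dispersion for every gene and no batch effect, so the check cannot speak for the members' own changes. Totals per animal were 55393588 to 79866411 UMIs. Correlations used 100000 permutations, and share tests were exact. All 9 members were named in each comparison, with Malat1 as a check, listed genes only if past the threshold, and the 5 most similar genes, of which 1 is not reported here. Slc35f2 and Saa3 were named after their values were seen. Alternatives were DESeq2 1.42.0, other scaling, no filter, only the 2 groups compared, replicate or batch blocks, no doublets, nuclei of 1000 or more UMIs, labels as given, and each animal left out. The members and gene lists were chosen with earlier results of these data known. The labels do not say how the replicates of a group were prepared beyond separate animals.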

Additional observations from a re-analysis of the deposited data

Results flagged for a closer look

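In groups of 4 or 6 animals, 57 sets of values (each member in oligodendrocytes and in neurons, and the oligodendrocyte share) were searched for a sample far from the others of its group, and 3 were found, where chance gives about 1 in 20. Mbp in oligodendrocytes was 5340.5 CPM in saline replicate 1, where the other 3 saline animals had 3975 to 4186 CPM. Mal in oligodendrocytes was 739.95 CPM in Malat1 ASO replicate 1, where the other 3 had 359 to 399 CPM. Mog in neurons was 20.986 CPM in Malat1 ASO replicate 4, where the other 3 had 27.9 to 29.1 CPM. Saline replicate 1 and Malat1 ASO replicate 1 are both of batch 1. OTV:Malat1 replicate 2 could not be found by this search, since its group has 3 animals.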

How the results depend on the processing

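The count of members past the threshold stayed at 0 in all 4 comparisons under 28 alternatives in oligodendrocytes, 27 in each of clusters 0, 2 and 15 and 29 in neurons, with a smallest adjusted p of 0.315. Of 4968 alternative values of single members, 557 had the other sign than the value reported, all of them uncalled on both sides. In oligodendrocytes the values ran from -0.40 to 0.30 and in neurons from -0.28 to 0.70. With the replicate number as a replicate block the count was also 0, and the change of Mbp in oligodendrocytes in OTV:Malat1 against saline was -0.16, beside -0.03 with the batch as a block and -0.13 with neither. The labels give no meaning to the numbers. Same-numbered animals were of the same deposited batch in 4 of 4 pairs of Malat1 ASO and saline, in 3 of 4 of anti-TfR:Malat1 and saline and in 0 of 3 in both OTV:Malat1 comparisons. The correlation of their deviations from group means ranged from -0.06 to 0.38 for Malat1 ASO and saline, where 3 of 4 correlated best with their own number. It ranged from -0.30 to 0.31 in the other comparisons. The difference in oligodendrocyte share between OTV:Malat1 and saline was -1.19 percentage points and turned to 0.722 with the batch as a block. Leaving out 1 animal each, it ranged from -3.39 to 0.886, and that between OTV:Malat1 and anti-TfR:Malat1 (1.09) from -1.12 to 3.16. With nuclei of 1000 or more UMIs the latter was -2.84. The correlation of the level in neurons with the oligodendrocyte share fell to r 0.438 (permutation p 0.0726) without deposited doublets and to 0.327 (permutation p 0.208) with labels as given, and was 0.678 (permutation p 0.0522) with each batch centred on its mean. The cause was not tested. With 3 to 6 animals a group, the intervals give the precision of each change, and they are not limits of detection.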
